A study of Mus musculus with 25 samples.

Results

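Spermatogonia are the mitotic germ cells at the base of the seminiferous tubule, and they are rare in suspensions of adult testis. They were taken from Drop-seq profiles of whole adult mouse testes, a droplet method that tags the 3′ ends of each cell's transcripts with a cell barcode and a unique molecular identifier (UMI), so that UMIs stand for molecules. A barcode was kept as a spermatogonium if it held at least 300 UMIs in all and at least 3 UMIs over 10 genes (Stra8, Hells, Zbtb16, Dmrt1, Uchl1, Foxo1, Nanos3, Lin28a, Kit and Nanos1). Those UMIs had to make up at least 0.2% of its total. A barcode with more than 1 Sycp3 UMI per 1000 UMIs was left out, and so was one with 1% or more of its UMIs over the Leydig cell genes Star, Cyp17a1, Cyp11a1 and Insl3. Of the 40295 whole-testis barcodes with at least 300 UMIs, 149 met the clauses on the 10 genes, 50 of these were lost to Sycp3 and 2 to the Leydig genes, and 97 remained. The levels of the 10 selecting genes chose these barcodes and are therefore given as a description.

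The 97 spermatogonia came from 4 groups of mice. The wild type (WT) group was 11 libraries of C57BL/6 testis, from mice of 3 months 1 day to 9 months 14 days, with libraries 1 and 2 dissociated with enzymes and the other 9 mechanically. The Mlh3 group was 6 libraries of Mlh3-/- testis, with the background given as B6;129 in the labels, at 2 months 21 days to 8 months 30 days and was dissociated mechanically. The study's methods name the Mlh3 line B6.129-Mlh3tm1Lpkn/J, and give C57BL/6J for the WT and CNP mice. Libraries 2 and 3 of that group carry the same age in the labels. The Cul4a group was 2 mechanical libraries of Cul4a-/- testis, also B6;129, at 1 month 18 days and 1 month 21 days. The CNP group was 2 mechanical libraries of C57BL/6 mice that carried the CNP eGFP BAC TRAP transgene, at 2 months 14 days and 2 months 16 days. The labels' ages for Cul4a and CNP are the reverse of those in the study's own list of samples. Genotype cannot be told apart from background in Mlh3 and Cul4a, which had no controls of their own backgrounds among the libraries used. A further library held spermatogonia sorted by GFP from pooled 7-day-old reporter mice (Pouf51-EGFP in the labels), dissociated with enzymes. The study's methods name that line B6;CBA-Tg(Pou5f1-EGFP)2Mnn/J.

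In the adult testis, a small pool of undifferentiated spermatogonia renews itself under GDNF from Sertoli cells and is marked by factors such as ZBTB16 and FOXO1. Retinoic acid then turns on Stra8 and Kit, and the differentiating cells divide several times before the last of them replicates its DNA and enters meiosis. The X chromosome is transcribed in spermatogonia and is silenced later, in pachytene spermatocytes.

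The whole-testis libraries held between 357235 and 9745302 UMIs, and the median barcode of 300 UMIs or more had 451 to 2175 UMIs depending on the library. The spermatogonia had a median of 1679 UMIs (319 to 16137) and 1209 genes (296 to 5121), and together 253753 UMIs. A total of 124 of the 210 pairs of libraries shared at least 1 barcode sequence, at most 8 in a pair, but no pair of spermatogonia did, and 1 spermatogonium's barcode occurred in another library. Doublets were not called.

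The label was checked against lists of marker genes that played no part in the selection. Transcripts of other somatic cells were few in most spermatogonia. The endothelial list was at 0 in all 97, the erythroid list in 96, the T lymphocyte list in 95, the peritubular myoid list in 93 and the macrophage list in 89. These lists were rare in the other barcodes too. There they held 309, 4490, 1435, 647 and 4454 UMIs in that order, against 49766 of the Sertoli list. At the depth of the spermatogonia a 0 is therefore likely in most barcodes, and these counts cannot decide the label. From 4 UMIs, the peritubular myoid list was no lower per UMI in the spermatogonia than in the other barcodes. The Sertoli list was at 0 in 44 and reached 1% of UMIs or more in 4 barcodes, 1 each in WT library 2, Mlh3 library 6 and Cul4a libraries 1 and 2. The Leydig list was at 0 in 58 and reached 1% or more in 2. It included the 4 Leydig genes of the rule here, so the rule partly fixes these counts. The spermatid list was at 1% or more in 23, of which 9 were WT, 14 Cul4a and none Mlh3, the pachytene list in 16 and the leptotene and zygotene list in 6.

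WT libraries 2 and 8 stood apart. The 2 spermatogonia of WT library 2 had been chosen on 3 UMIs each, one of Uchl1 and one of Foxo1, and they carried no UMI of the lists for undifferentiated spermatogonia, differentiating spermatogonia or DNA replication. Over the Sertoli list they held 27691 counts per 1000000 UMIs (CPM) together, against at most 1245 in the other WT libraries. Of these Sertoli UMIs, 51 lay in 1 barcode of 1426 UMIs and 2 in the other, of 488 UMIs. The data thus go against the label for the first, and give the second no marker outside the selection. The 2 of WT library 8 carried no UMI of the undifferentiated list either, and held 70510 CPM over the spermatid list against 6166 to 17241 in the other WT libraries. The strain comparisons of shares, and the WT list sums set beside the sorted library, are therefore also given without both libraries. Outside WT library 2, only Mlh3 library 6 held a spermatogonium with no UMI of the undifferentiated, differentiating and DNA replication lists, and 9 of its 10 had some.

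Of the 10 selecting genes, Stra8, Hells and Uchl1 gave most of the UMIs, and their promoters are shown because they carry the selection. Stra8 is induced by retinoic acid and is needed for entry into meiosis, Hells is a chromatin remodeller needed for DNA methylation, and Uchl1 is a ubiquitin hydrolase abundant in early spermatogonia. RefSeq start sites on GRCm38.p6 were found for 8 of the 10 genes, and the 250 bases before the start are printed 5′ to 3′ on the gene's own strand for these 3 genes. Capitals mark AGGTCA, the motif bound by retinoic acid receptors and other nuclear receptors, searched as AGGTCA and TGACCT on both strands.
Stra8, chr6:34920698-34920947, plus strand: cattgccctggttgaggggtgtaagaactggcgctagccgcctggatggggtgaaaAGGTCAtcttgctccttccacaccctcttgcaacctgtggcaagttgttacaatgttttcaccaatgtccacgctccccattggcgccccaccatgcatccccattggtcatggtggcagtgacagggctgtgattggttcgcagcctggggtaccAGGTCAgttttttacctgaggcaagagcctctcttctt
Hells, chr19:38930740-38930989, plus strand: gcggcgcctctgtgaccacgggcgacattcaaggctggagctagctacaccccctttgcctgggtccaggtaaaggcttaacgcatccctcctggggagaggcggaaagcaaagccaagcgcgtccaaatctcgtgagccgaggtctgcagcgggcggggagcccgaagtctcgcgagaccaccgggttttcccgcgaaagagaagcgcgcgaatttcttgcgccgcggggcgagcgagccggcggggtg
Uchl1, chr5:66675871-66676120, plus strand: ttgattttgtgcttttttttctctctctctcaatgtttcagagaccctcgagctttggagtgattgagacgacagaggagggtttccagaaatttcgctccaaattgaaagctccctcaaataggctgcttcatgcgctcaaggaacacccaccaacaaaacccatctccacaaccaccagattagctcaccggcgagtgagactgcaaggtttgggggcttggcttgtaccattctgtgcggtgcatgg
The Stra8 window held 2 copies of the motif, beginning 194 and 38 bases before the start, and the windows of the other 7 genes held none. Of 32851 promoter windows of this length, 14.0% held the motif at least once and 1.34% held 2 or more. Hells had 28 CpG dinucleotides in its window, a number reached by 7.61% of windows, whereas Uchl1 had 7 and Stra8 had 5, near the median of 6. A match is a string of letters and not a binding site.

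Hells was detected in 74 of the 97 spermatogonia, Uchl1 in 69, Stra8 in 57 and Dmrt1, a transcription factor of the male germ line, in 56. The other selecting genes were seen in fewer. Kit, the receptor of differentiating cells, was seen in 23, Foxo1 in 19, Nanos1 in 17, Zbtb16 in 15, Nanos3 in 9 and Lin28a in 7. Summed over the spermatogonia and scaled to CPM, Hells stood at 1001 CPM against 30.6 in all other barcodes, Stra8 and Uchl1 both at 985 against 9.64 and 20.3, and Dmrt1 at 516 against 6.93. The rule itself fixes that direction. For scale, 10627 barcodes with at least 5% of their UMIs over the spermatid list, cells that should lack these transcripts, held 48.0 CPM over the 10 genes, and 2.26% of them had a Uchl1 UMI, 1.23% a Hells UMI and 0.320% a Stra8 UMI. Their median depth was 403 to 1510 UMIs depending on the library.

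**Figure D1:**
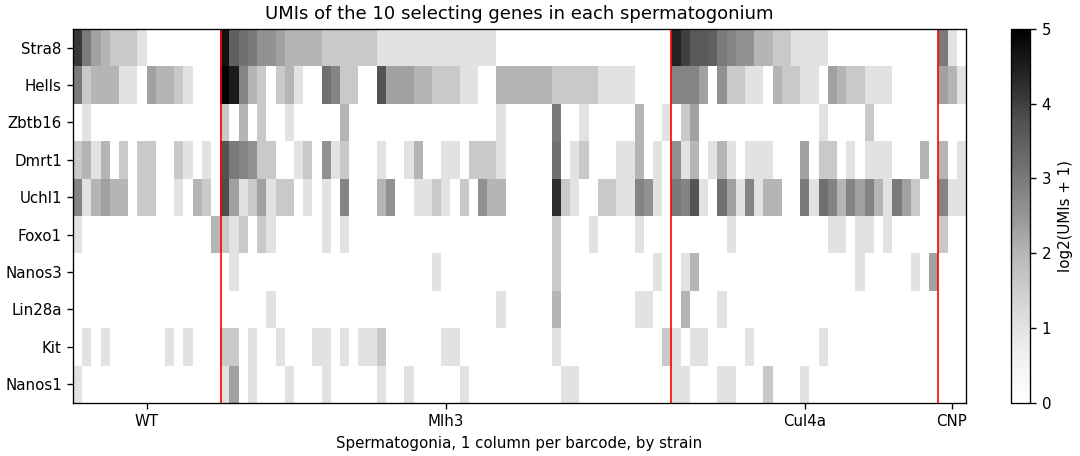
UMIs of the 10 selecting genes (rows) in each of the 97 spermatogonia (columns, grouped by strain between the red lines), as log2(UMIs + 1). Stra8, Hells, Dmrt1 and Uchl1 fill most columns, and Zbtb16, Nanos3 and Lin28a appear in 15, 9 and 7 columns.

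Stra8 made up 1427 CPM in the WT spermatogonia, 721 in Mlh3, 1259 in Cul4a and 1559 in CNP, and Hells 1272, 1121, 678 and 1559. Uchl1 stood at 1157, 728, 1332 and 1559 CPM in the same order. The CNP values rest on 8 UMIs of each gene, and the WT values on 37, 33 and 30. No UMI of Nanos3 or Lin28a was found in the WT spermatogonia, which together held 25934 UMIs, against 5 and 7 UMIs in Mlh3 and 10 and 4 in Cul4a, so these genes were not detectable in WT at this depth.

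Most spermatogonia were chosen on few UMIs. The median was 6 UMIs over the 10 genes and the highest 87, and 25 barcodes had exactly 3. The share of UMIs in these genes ran from 0.202% to 1.05%. Of the 97, 12 carried 1 of the 10 genes, 17 carried 2, 26 carried 3, 15 carried 4, 11 carried 5, 9 carried 6, 3 carried 7 and 4 carried 8. Among the 12 with a single gene, 6 were Hells and 3 Uchl1. Barcodes just outside the threshold held less of the independent lists. The 25 spermatogonia with 3 selecting UMIs had 531 CPM over the undifferentiated, 1511 over the differentiating and 2164 over the DNA replication list, and the 72 with more had 1439, 2984 and 3790. The 25 also held more of other cells' transcripts, with 3675 CPM over the Sertoli list against 1021 in the 72, 1307 over the Leydig list against 410 and 14699 over the spermatid list against 5675, and 98563 CPM of mitochondrial transcripts against 43570. Their part in these values was not tested. The 82 barcodes with 2 selecting UMIs that met every other clause had 346, 904 and 1135, and the 131 with enough UMIs but a share under 0.2% had 176, 1157 and 920.

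The deepest spermatogonia showed how far members differed from each other within 1 library. These barcodes were picked with their values in view. In Mlh3 library 2, a barcode of 13537 UMIs carried 7 Zbtb16, 3 Lin28a, 2 Nanos3, 18 Uchl1 and 8 Dmrt1 UMIs with 0 of Stra8 and 2 of Hells, and it held 53 UMIs of the undifferentiated list and 20 of the differentiating list. Another barcode of that library, of 11642 UMIs, carried 10 Stra8 and 22 Hells UMIs with 0 of Zbtb16 and Lin28a, and held 11 undifferentiated and 40 differentiating UMIs. The spermatogonium with the most selecting UMIs, in Mlh3 library 5, had 30 of Hells and 25 of Stra8 among 16137 UMIs, with 89 UMIs of DNA replication genes, 52 of the differentiating list and 16 of the undifferentiated list.

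The spermatogonia were then split by which selecting genes they carried. A total of 26 carried both a gene counted here as undifferentiated (Zbtb16, Foxo1, Nanos3, Lin28a or Nanos1) and Stra8 or Kit. Another 16 carried only the former, 35 only Stra8 or Kit, and 20 neither. The study lists Nanos1, seen in 17 of the 97, among genes of differentiating spermatogonia, and no split without it is given. On genes outside the selection, the undifferentiated list made up 1784 CPM in those with only undifferentiated genes, 1628 in those with both 645 in those with only Stra8 or Kit and 1155 in those with neither. The list of GDNF, KIT and FGF receptors and related growth factor genes ran the same way, with 321, 311, 129 and 175 CPM, from 9, 42, 8 and 5 UMIs. The leptotene and zygotene list was 3532, 4227, 6252 and 4306 in that order. The spermatid list moved with the split too, at 7884, 3109, 11957 and 9733 CPM, and the pachytene list was at 5494, 3005, 5334 and 6302, and the part of transcripts from later germ cells was not tested. The differentiating list differed less, with 3104, 2842, 3029 and 2171 CPM. Depth differed between the kinds, with a median of 3882.5 UMIs in those with both, 1692 and 1429 in the next and 1170 in those with neither, and the part of depth in the split was not tested. The 20 with neither held 5391 CPM over the Sertoli list, against 444 in those with both.

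**Figure D2:**
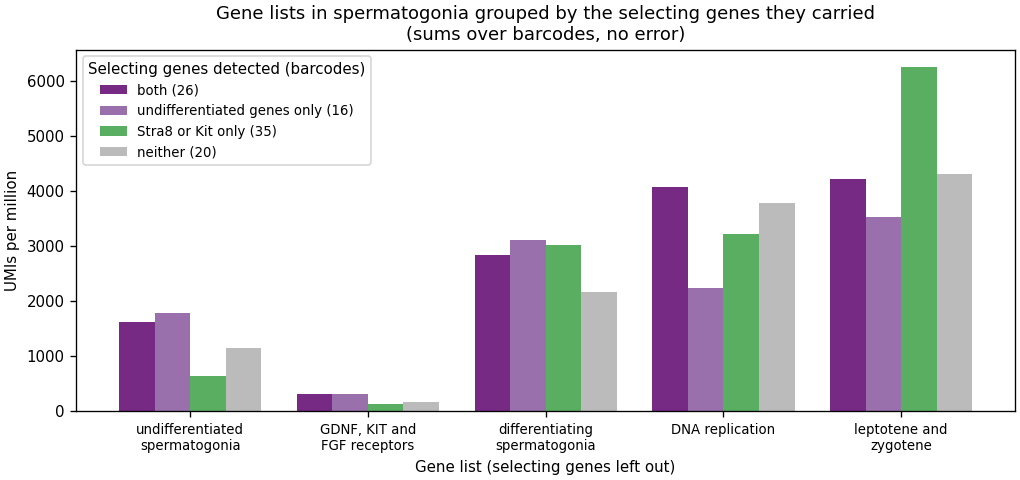
CPM over 5 gene lists (groups of bars) in spermatogonia split by the selecting genes they carried (colours, number of barcodes in the legend), as sums over barcodes with no error. Those with only undifferentiated genes reach 1784 on the undifferentiated list and 3532 on the leptotene and zygotene list, and those with only Stra8 or Kit 645 and 6252. Nanos1 was counted as an undifferentiated gene.

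Beyond the selecting genes, the spermatogonia held transcripts of differentiating spermatogonia, DNA replication and early meiosis, though not every germ cell list stood out. Each gene was compared between the spermatogonia and the other barcodes of the same library in the 5 libraries with at least 10 of them (Mlh3 libraries 2, 5 and 6 and Cul4a libraries 1 and 2). This is the contrast the selection was made on, so it has no test. Of 6945 genes with at least 5 UMIs in these spermatogonia, 1392 (20.04%) were higher in all 5 libraries, and the median log2 difference over all genes was 0.38 with 20 CPM added, so counts are read against those values. CPM values over all spermatogonia and all other barcodes pool the strains, whose parts differ between the sums. Mlh3 gave 49 of the 97 spermatogonia but 8298 of the 40295 barcodes with at least 300 UMIs.

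Genes of differentiating spermatogonia were higher in all 5 libraries for 10 of the 16 with enough UMIs, and the list made up 2841 CPM against 918 in the other barcodes. Dnmt1, the maintenance DNA methyltransferase, had 13, 18 and 12 UMIs in Mlh3 libraries 2, 5 and 6 and 11 and 16 in Cul4a libraries 1 and 2. That came to 278, 572, 757, 250 and 415 CPM, against 12.3 to 109 in the other barcodes, so spermatogonia were higher within every library. Crabp1, a retinoic acid binding protein, stood at 382 CPM over all spermatogonia against 2.48. The Polycomb protein Scml2 was at 323 against 13.5, Map7d2 at 280 against 6.03, the X-linked homeobox gene Rhox13 at 181 against 4.33, and Sohlh1, a transcription factor of spermatogonial differentiation, at 162 against 3.21. Dmrtb1, a factor of the change from mitosis to meiosis, went the other way, with 142 CPM against 811, and was higher in none of the 5 libraries.

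The undifferentiated list made up 1352 CPM against 145. Only 2 of its 14 genes with enough UMIs were higher in all 5 libraries, a share below that over all genes. These were Tex19.1, which restrains transposons in germ cells, 197 against 7.32 CPM, and Taf4b, a germ cell transcription factor subunit, at 126 against 10.2. Ccnd2, a cyclin of early spermatogonia, was at 181 against 3.97 CPM, Sall4, a zinc finger factor of germline progenitors, at 130 against 0.600, Sox4 at 106 against 5.34, and Egr4 at 78.8 against 3.03, each higher in 4 of the 5. The genes closest to the stem cell pool were barely seen. Gfra1, the GDNF receptor, had 4 UMIs in the 97 spermatogonia, its partner Ret 3, Id4 7, Nanos2 1 and Eomes 0. Id4 was lower than in the other barcodes, at 27.6 against 77.2 CPM.

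DNA replication genes followed, at 3633 CPM against 664, with 12 of 23 higher in all 5 libraries. Mcm2, a subunit of the replicative helicase, had 7, 7 and 3 UMIs in Mlh3 libraries 2, 5 and 6 and 20 and 15 in Cul4a libraries 1 and 2. Those were 149, 222, 189, 454 and 389 CPM, against 1.04 to 2.48 in the other barcodes, so its level per UMI was higher in the spermatogonia of all 5 libraries. The DNA ligase Lig1 was at 457 against 31.2 CPM, Rpa2 at 319 against 21.3 and Mcm3 at 217 against 7.71. Cyclins and mitosis genes were at 2975 CPM against 1221, with 3 of 18 higher in all 5 libraries, among them Ccna2 at 154 against 2.53 CPM, a share of genes below that over all genes. The proliferation marker Mki67 was at 315 against 29.6 CPM. The DNA methylation list was at 867 CPM against 90.5, with 3 of 5 genes higher in all 5 libraries.

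Genes of early meiosis were also detected. The study lists Stra8, a selecting gene, under its (pre)leptotene component, and also names it for differentiating spermatogonia. Whether some barcodes selected on Stra8 had already left the spermatogonial stage was not tested. The leptotene and zygotene list was at 4654 CPM against 2425, with 6 of 15 higher in all 5 libraries. By strain it was at 4280 against 1979 CPM in WT, 5467 against 3585 in Mlh3 and 3475 against 2125 in Cul4a. In CNP it was at 3313 against 2374, and in Mlh3 library 2 at 5848 against 5668. Tex15, needed for double-strand break repair, was at 753 against 93.1 CPM, and Zcwpw1, a reader of the marks left by PRDM9, at 485 against 31.9. Dazl, the germline RNA-binding protein, was at 1529 CPM against 114. It was the only gene of the 7 on the pan germ cell list that was higher in all 5 libraries, again a share below that over all genes. That list was at 3302 CPM against 2491, with a median log2 difference of -0.26 against 0.38 over all genes. The 50 barcodes that met the clauses on the 10 genes and failed on Sycp3 held 11862 CPM of the leptotene and zygotene list, 596 of the undifferentiated list and 3363 of the replication list. Sycp3 chose between these classes, so the first of these gaps is linked to the rule.

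Genes of later stages were lower in the spermatogonia over all libraries. None of 12 pachytene genes and none of 14 spermatid genes was higher in all 5 libraries, and the lists stood at 4221 against 20326 and 6546 against 36500 CPM. By strain, the spermatid list stood at 16041 against 43142 CPM in WT, 335 against 1245 in Mlh3 and 14301 against 55657 in Cul4a. In CNP that list was at 3313 against 26669 CPM. Ldhc, a lactate dehydrogenase of spermatocytes, was at 1127 against 7079 CPM. WT library 8 ran the other way on the spermatid list, with 70510 CPM in its spermatogonia against 42027 in its other barcodes. The somatic lists differed between libraries. The Leydig list was lower in the spermatogonia than in the other barcodes of each Mlh3 library, from 63.6 against 1176 CPM in library 5 to 883 against 904 in library 6, and of Cul4a library 2, but higher in Cul4a library 1 (522 against 247). The Sertoli list was lower in Mlh3 libraries 1 to 5, such as 662 against 3532 CPM in library 2, and higher in Mlh3 library 6 (3155 against 1120) and Cul4a library 1 (1861 against 387).

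**Figure D3:**
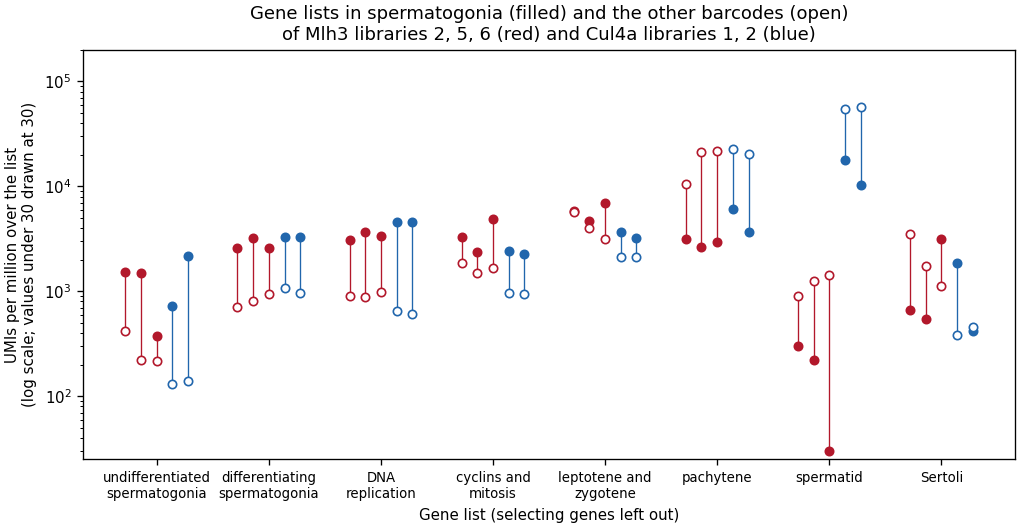
CPM (log axis) over 8 gene lists without the selecting genes, in the spermatogonia (filled) and the other barcodes (open) of Mlh3 libraries 2, 5 and 6 (red) and Cul4a libraries 1 and 2 (blue), with values under 30 drawn at 30. The undifferentiated, differentiating and DNA replication lists are higher in the spermatogonia of all 5 libraries, and the pachytene and spermatid lists are lower.

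In the WT libraries, only 4 genes outside the selection had at least 50 UMIs in the spermatogonia and were higher in all 5 libraries above. The nucleolar protein Ncl stood at 5360 CPM against 63.7 in the other WT barcodes, the chaperone Hsp90ab1 at 4550 against 253, and the ribosomal proteins Rpl14 and Rpl8 at 1928 against 85.5 and 1967 against 514. The single spermatogonium of WT library 1 gave 68 of the 139 Ncl UMIs, and without it Ncl stood at 3269 CPM.

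X-linked transcripts were more abundant in the spermatogonia than in the other barcodes, and the 10 selecting genes are autosomal. X-linked UMIs per autosomal UMI were 2.30% ± 0.732 (SD, n = 8 libraries) in WT, 2.42% ± 0.264 (n = 6) in Mlh3, 2.46% in Cul4a (n = 2) and 2.28% in CNP (n = 2). In the other barcodes of these libraries they ran from 0.437% to 1.91%, and the spermatogonia were higher than the other barcodes in each of the libraries that held any. The lowest spermatogonial value was 1.25%, in WT library 8, and the highest 3.86%, in WT library 2. Differences from WT were 0.119 percentage points for Mlh3, 0.157 for Cul4a and -0.0196 for CNP, each with an adjusted p of 0.889 by exact two-sided permutation of library labels. Without WT libraries 2 and 8 the WT value was 2.21% ± 0.194 (SD, n = 6 libraries) and the differences were 0.204, 0.241 and 0.0652 points, with adjusted p-values of 0.237, 0.237 and 0.786 by exact permutation. These libraries held as few as 1 spermatogonium, and the minimum of 1 was chosen after the data were seen.

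Mitochondrial transcripts took 8.40% ± 5.04 (SD, n = 6) of the UMIs of Mlh3 spermatogonia and 2.69% ± 3.28 (n = 8) in WT. By library, the Mlh3 values were 4.51%, 5.10%, 9.01%, 16.8%, 3.72% and 11.3%, and the WT values were 1.11% to 2.04% apart from 10.8% in library 2. Only that WT library overlapped the Mlh3 range. The difference of 5.72 percentage points had p = 0.0300 and an adjusted p of 0.0899 by exact two-sided permutation. Without WT library 2 it was 6.87 points with an adjusted p of 0.00350, without libraries 2 and 8 it was 6.90 points with 0.00649, and in HiSeq libraries of mechanical dissociation 8.59 points with 0.0476. It did not pass in libraries with at least 2 spermatogonia (4.83 points, adjusted p = 0.312), without spermatid-rich spermatogonia (5.21 points, 0.247), with Kit left out of the rule (5.19 points, 0.106) or with any other single library left out (4.04 to 6.65 points, up to 0.210), all by exact permutation. The other barcodes of the Mlh3 libraries were also rich in these transcripts, at 4.55% to 13.5%, and library 4, for example, held 9.40% there. Of the 21 spermatogonia with 10% or more mitochondrial UMIs, 20 were Mlh3 and 1 was WT. Cul4a spermatogonia held 1.59% and CNP spermatogonia 1.73%, and neither passed the test against WT (adjusted p = 0.978 for both, exact permutation).

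**Figure D4:**
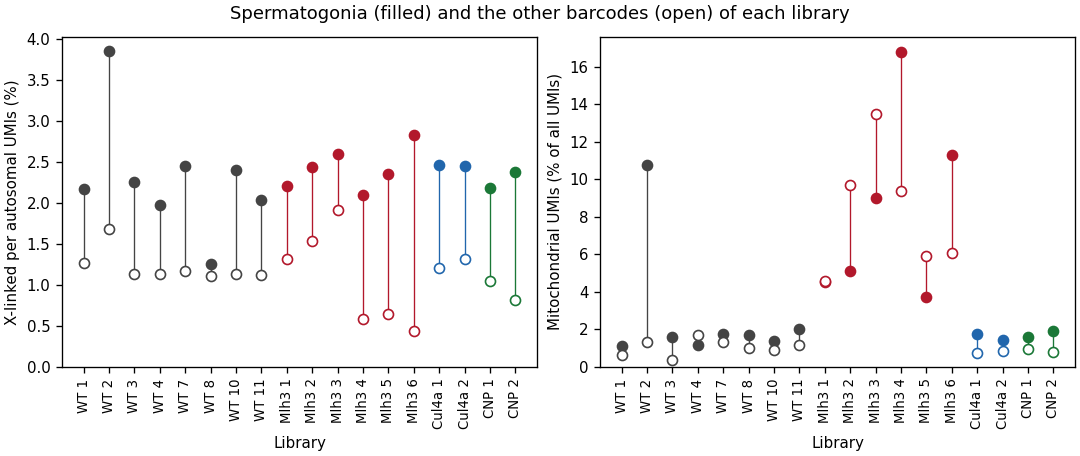
X-linked per autosomal UMIs (left, %) and mitochondrial UMIs (right, % of all UMIs) in the spermatogonia (filled) and the other barcodes (open) of each library that held spermatogonia, with strain by colour. X-linked values are higher in the spermatogonia of every library, and mitochondrial values of the Mlh3 spermatogonia lie between 3.72% and 16.8%.

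The share of spermatogonia differed widely among libraries. WT libraries 1 to 4 held 1, 2, 2 and 1 spermatogonia, or 1%, 0.364%, 0.237% and 0.0339% of barcodes with at least 300 UMIs. WT libraries 7, 8, 10 and 11 held 3, 2, 1 and 4, or 0.101%, 0.0673%, 0.0389% and 0.135%. WT libraries 5, 6 and 9 held none of about the same number of barcodes each. Taken as 3 counts of the total, that allows a share of up to 0.101%, and the exact 95% intervals reach up to 0.124%. WT library 1 had only 100 barcodes, and its single spermatogonium has an exact 95% interval of 0.0253% to 5.45%. Intervals and limits here cover counting error only.

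The 6 Mlh3 libraries held 3, 12, 5, 8, 11 and 10 spermatogonia, or 0.589%, 4.08%, 0.629%, 0.555%, 0.565% and 0.302%. Library 2, with 12 of 294 barcodes, stood above the rest with an exact 95% interval of 2.13% to 7.02%. The Cul4a libraries held 16 and 13, or 0.579% and 0.438%, and the CNP libraries 1 and 2, or 0.144% and 0.279%. All Mlh3 and Cul4a shares lay above the 9 lowest WT shares, and WT libraries 1 and 2 overlapped them.

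**Figure D5:**
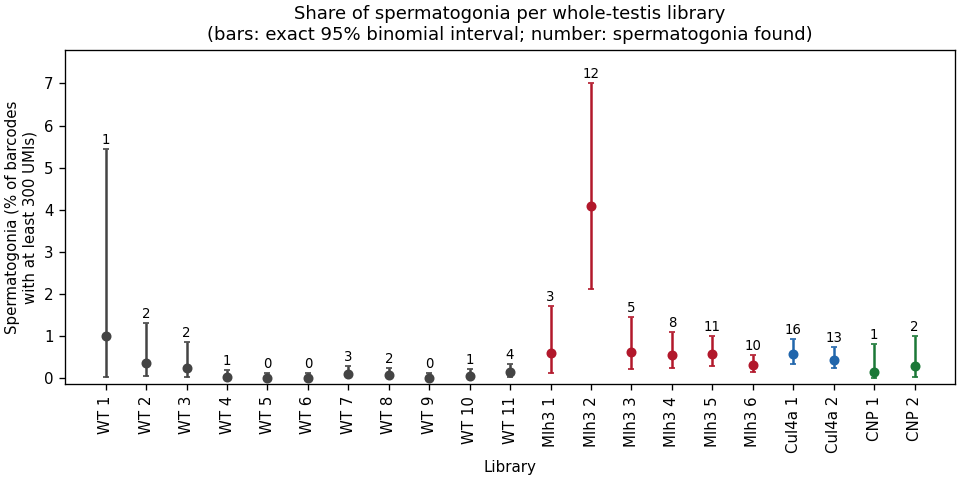
Share of spermatogonia among barcodes with at least 300 UMIs in each library (points, %), with exact 95% binomial intervals and the number found above each. The WT libraries run from 0 to 1%, and Mlh3 library 2 reaches 4.08%.

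The mean share was 0.180% ± 0.295 (SD, n = 11) in WT with a median of 0.0673%, 1.12% ± 1.46 (n = 6) in Mlh3, 0.508% ± 0.0994 (n = 2) in Cul4a and 0.212% ± 0.0952 (n = 2) in CNP. Mlh3 exceeded WT by 0.941 percentage points (p = 0.0121, adjusted p = 0.0364 over the 3 strains, exact two-sided permutation of library labels). Cul4a exceeded WT by 0.329 points with an adjusted p of 0.385, and CNP by 0.0319 points with an adjusted p of 0.513, by the same exact test. Among HiSeq libraries of mechanical dissociation, WT kept 8 libraries and Mlh3 4. Mlh3 libraries 1 and 2 were left out, and so were WT libraries 1, 2 and 3. Those WT libraries held the highest WT shares (1%, 0.364% and 0.237%), so leaving them out lowered the WT maximum to 0.135%. The differences were 0.466, 0.461 and 0.165 points with adjusted p-values of 0.0121, 0.0444 and 0.0444 by exact permutation. The unadjusted values, 0.00404 for Mlh3 and 0.0444 for Cul4a and CNP, are the smallest that exact permutation can give for these numbers of libraries. The lower CNP share, 0.144% from 1 spermatogonium, lay just above the WT maximum of 0.135%. Without WT library 2 the Mlh3 difference was 0.959 points with an adjusted p of 0.0367 by exact permutation, and without WT libraries 2 and 8 it was 0.949 points with 0.0539 (Cul4a 0.337 and CNP 0.0399 points, both 0.436). With Mlh3 libraries 2 and 3, which share an age, merged into 1 it was 0.535 points with an adjusted p of 0.0728, and with at least 5 marker UMIs 0.620 points with 0.188, both by exact permutation. Without Mlh3 library 2 it was 0.348 points with an adjusted p of 0.103 by exact permutation, and the adjusted p also exceeded 0.05 without any 1 of Mlh3 libraries 1, 3, 4 and 5 (up to 0.0728, exact permutation) or of WT libraries 4 to 10 (up to 0.0532, exact permutation).

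Shares are relative to the other cells. The spermatid list made up 43142 CPM in the other WT barcodes, 1245 in Mlh3, 55657 in Cul4a and 26669 in CNP, so a higher share of spermatogonia in Mlh3 cannot be told apart from fewer late germ cells around them. Thinning every barcode of at least 1000 UMIs to 1000 UMIs gave a Mlh3 difference of 1.86 points with an adjusted p of 0.0189 by exact permutation. Cul4a and CNP then differed from WT by 0.245 and 0.0436 points, with adjusted p-values of 0.692 and 0.872 by exact permutation. WT libraries 1, 2 and 7 held 1.29%, 0.951% and 0.583% after thinning, and the other WT libraries at most 0.501%. The Cul4a libraries held 0.536% and 0.648%, and the CNP libraries 0.781% and 0%. Age was set beside the share in the 11 WT libraries. Pearson's r was -0.21 (permutation p = 0.485) and Spearman's rho -0.018 (permutation p = 0.960), and without libraries 10 and 11, the farthest from the median age, r was -0.17.

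Expression within spermatogonia could be tested between strains only for Mlh3 (libraries 2, 5 and 6) against Cul4a (libraries 1 and 2), since no WT or CNP library held 10 spermatogonia. This comparison was added after the data were seen. Counts were summed per library and fitted with edgeR's quasi-likelihood test. Of 6945 genes, 113 (1.63%) passed an adjusted p of 0.05, with 16 (0.230%) higher and 97 (1.40%) lower in Mlh3, and 815 had an unadjusted p under that value. The minimum of 5 UMIs was summed over both groups, so a gene could enter through 1 group alone. Of the lower genes, 67 had no UMI in Mlh3 spermatogonia, and of the higher genes 2 had none in Cul4a. With edgeR's own filter, 20 of 949 genes were called higher and 35 lower. The median log2 fold change over all genes was -0.12.

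The genes that were lower in Mlh3 spermatogonia were led by transcripts of spermatids. The spermatid list gave 11 of its 14 genes, against 1.40% of all genes. Prm1, a protamine that packs sperm DNA, had 0 UMIs in each of the 3 Mlh3 libraries and 135 and 97 in the Cul4a libraries. Prm2 had 0 in each Mlh3 library against 135 and 89, Smcp, of the sperm mitochondrial sheath, 0 against 184 and 36, and Tnp2, a transition protein, 0 against 83 and 43. Tnp1 had 1, 0 and 0 UMIs against 78 and 53. These 5 genes had the lowest adjusted p-values by edgeR, at most 8.8e-16. The groups did not overlap for any of them. Genes picked by their adjusted p are likely to separate, and no share over all genes is given, so this is a description. In the other barcodes of the same libraries, 93 of the 97 genes differed in the same direction and 85 by at least 2-fold on CPM with 20 added, and 67 had no UMI in the Mlh3 spermatogonia. No share over all genes tested is given beside these counts, so they are a description only. Prm1, for instance, stood at 12489 CPM in the other Cul4a barcodes and 0.133 in Mlh3. The part of RNA from other cells in these calls was not tested. With the 14 Cul4a spermatogonia of 1% or more spermatid UMIs left out, edgeR called 28 genes, 15 of them lower, and the 5 genes named above were still among these (adjusted p at most 2.17e-06).

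Of the 16 genes that were higher in Mlh3 spermatogonia, all went the same way in the other barcodes, again with no share over all genes beside it. The nuclear RNA Malat1 stood at 11697, 2765 and 15647 CPM in Mlh3 against 363 and 389 in Cul4a, a log2 fold change of 4.55 ± 0.81 (SE, edgeR adjusted p = 1.0e-05). The mitochondrial ribosomal RNA mt-Rnr1 was at 2070, 1112 and 3975 CPM against 159 and 234 (log2 3.37 ± 0.59, adjusted p = 7.7e-06). Kcnq1ot1, an imprinted nuclear RNA, was at 299, 509 and 631 CPM against 22.7 and 26.0, from 1 UMI in each Cul4a library. Lcn2 had 12, 2 and 18 UMIs against 1 and 1, Usp47 11, 9 and 8 against 1 and 1, and Jmjd1c, a histone demethylase, 24, 5 and 5 against 1 and 2. The Mlh3 libraries were above both Cul4a libraries for each of these genes. They were picked by adjusted p and no share over all genes is given, so that too is a description. The mitochondrial share of these spermatogonia was higher in Mlh3 too, as given above. Without spermatogonia of 10% or more mitochondrial UMIs, edgeR called 5 genes higher and 63 lower. DESeq2 called 3 genes higher, and its adjusted p was 0.0735 for Kcnq1ot1, 0.191 for Lcn2, 0.252 for Usp47 and 0.295 for Jmjd1c. Without Cul4a library 1, edgeR called no gene higher and 14 lower at an adjusted p of 0.05 (353 in all at that unadjusted p), with adjusted p-values of 0.302 for Malat1 and 0.168 for mt-Rnr1.

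The genes of the spermatogonial lists did not pass the test between Mlh3 and Cul4a. By edgeR 0 of 14 undifferentiated, 0 of 16 differentiating, 0 of 23 DNA replication and 0 of 15 leptotene and zygotene genes were called, against 1.63% of all genes. At an unadjusted p under 0.05 there were 1, 4, 1 and 1, against 11.7% of all genes, and DESeq2 called none in any of these lists. The 10 selecting genes chose the barcodes in both strains and are given no test. Crabp1 was at 128, 413 and 126 CPM in Mlh3 against 545 and 649 in Cul4a, and its log2 fold change of -1.49 ± 0.52 missed the threshold (edgeR adjusted p = 0.138). Mki67 was the only gene of the cyclins and mitosis list that was higher in Mlh3 (log2 2.14 ± 0.61, edgeR adjusted p = 0.0340). Meig1 of the pachytene list and the Sertoli gene Defb36 were lower. DESeq2 called none of these 3 genes.

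The disrupted genes were few in UMIs. Cul4a, the scaffold of a ubiquitin ligase, had 4 UMIs in WT spermatogonia (154 CPM), 12 in Mlh3 (85.6) and 9 in Cul4a (109). Mlh3, a mismatch repair protein needed for crossovers, had 1 UMI in WT, 3 in Mlh3 and 8 in Cul4a spermatogonia, and Cnp had 0 in WT and 1 in CNP. Drop-seq reads the 3′ end, which may lie outside the disrupted part, so these values check no label.

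The sorted library gave a further set of spermatogonia. The same rule was met by 203 of its 292 barcodes with at least 300 UMIs (69.5%), and 36 of the others failed only on Sycp3. Among the selecting genes, Zbtb16 was seen in 104 of the 203, Dmrt1 in 163 and Hells in 184, which the rule and the depth of 934028 UMIs in all partly fix. X-linked UMIs per autosomal UMI were 2.69%. With 1 library of another age, background, genotype, dissociation and sort, none of the differences has a replicate check and their sources cannot be told apart. Intervals here are exact 95% Poisson ones and cover counting error only.

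Spermatid and pachytene transcripts were rarer in the sorted spermatogonia than in those of adult WT. The spermatid list stood at 84.6 CPM (67.0 to 105) in the sorted cells against 16041 in adult WT, and 9857 (8578 to 11273) without WT libraries 2 and 8. The Sertoli list stood at 64.2 CPM (49.0 to 82.7) against 2236, and without those libraries at 185 (50.4 to 474), from 4 UMIs, so that gap rested on WT library 2. The telocyte and interstitial list had 40 UMIs (42.8 CPM) in the sorted cells and none in WT, where the exact interval reaches 142 CPM. The pachytene list was at 1112 CPM (1046 to 1182) against 5206, and 4952 (4058 to 5984) without them.

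The undifferentiated list was at 2302 CPM (2206 to 2401) in the sorted cells against 1195 (812 to 1697) in adult WT, from 31 UMIs, and 1435 (975 to 2036) without libraries 2 and 8. WT library 7 gave 16 of those 31 UMIs, and without it WT stood at 761 CPM (426 to 1255). The differentiating list was at 3437 CPM (3319 to 3558) against 2468 (1901 to 3151), and 2823 (2159 to 3626) without them, where the intervals overlapped. DNA replication genes stood at 3845 CPM (3720 to 3972) against 3856 (3137 to 4690), and 4396 (3557 to 5374) without libraries 2 and 8. That match rested on WT library 7, which gave 47 of the 100 WT UMIs, and without it WT stood lower, at 2690 CPM (2015 to 3518). The leptotene and zygotene list was at 4428 CPM (4294 to 4565) against 4280 (3521 to 5154), and 4489 (3640 to 5476) without libraries 2 and 8, so a difference was not detectable at this depth.

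Single genes rested on few UMIs in WT. Ccnd2 stood at 314 CPM in the sorted cells against 2 UMIs in WT, Sohlh1 at 298 against 2 UMIs, Sox4 at 229 and Pramef12 at 137 against 1 UMI each, and Egr4 at 207 against 0. The de novo methyltransferase Dnmt3a was at 268 CPM with no UMI in WT, but at 193 in Mlh3 and 36.3 in Cul4a spermatogonia. Of genes with at least 100 UMIs in both sets together, a filter that genes pass almost only through the deeper sorted cells, the 10 with the widest gap towards the sorted cells had no UMI in WT. Among them, Rest was at 319 CPM against 307 in Mlh3 and 206 in Cul4a, whereas Gm26772, at 403 CPM, had no UMI in the spermatogonia of any adult strain. On the other side, Terf2ip was at 91.0 CPM against 1620 in WT, but 40 of its 42 WT UMIs lay in the single spermatogonium of WT library 1, and Mlh3 and Cul4a were at 42.8 and 12.1. Ccdc136 was at 87.8 CPM against 848 in WT, 335 in Mlh3 and 642 in Cul4a. Phf7, a histone reader of the male germ line, was at 103 CPM against 656, 414 and 375, so both were lower in the sorted cells than in each of these 3 strains.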

How the data were processed

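The authors made Drop-seq libraries, aligned the reads to mm10 with STAR 2.5.3a (submitters' processing notes) and deposited 1 matrix of raw, unscaled UMI counts per library. The 25 tables held whole counts. Counts per 1000000 UMIs (CPM) and list sums were computed from summed barcodes. X-linked genes came from GENCODE vM21, or from RefSeq symbols and synonyms where GENCODE had no entry. Mitochondrial genes were those whose symbols begin with mt-, and promoters came from RefSeq on GRCm38.p6. Of 270 listed gene symbols, 263 were found. A gene on several lists counts in each, and the selecting genes and the Leydig genes of the rule were left out of list sums. Only the counts of spermatogonia on the Leydig list kept those Leydig genes. The spermatogonia, the gene lists and the naming rule were all chosen with earlier results of these data known. Genes were named if they were selecting or disrupted genes, were among the highest 6 of a list by CPM, led a comparison by size or adjusted p (20 against other WT barcodes, 10 per direction elsewhere), and a few as singled out in the text.

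The library was the replicate. The study gives separate animals for the WT libraries, and the labels do not say so for the other strains, where p-values measure the spread between libraries. Shares were compared by exact two-sided permutation of library labels, with Benjamini-Hochberg adjustment over 3 strains. Age used 100000 permutations. Summed counts of the sorted library were set beside WT with exact Poisson intervals. Counts of libraries with at least 10 spermatogonia went into edgeR's quasi-likelihood fit (TMM, at least 5 counts, Benjamini-Hochberg over all genes), with DESeq2 as the alternative. The planned gene tests against WT could not be made, because no WT library held 10 spermatogonia, and a fit with smaller WT libraries made mostly false calls on simulated data. Mlh3 against Cul4a was added after the data were seen. It was tested on simulated counts with 200 changed genes, and the calls were nearly all true ones. The simulation gave all genes the same spread and held no difference of age or platform between libraries. It therefore does not measure how many of the real calls are true. For X-linked and mitochondrial shares the minimum was lowered to 1 spermatogonium. Alternatives were other UMI minimums and markers, platform and dissociation subsets, other filters, a replicate block and each library left out. The tools were Python 3.11.15, scipy 1.17.1, pandas 2.3.3, R 4.3.3, edgeR 4.0.16 and DESeq2 1.42.0. A further mutant strain and the sorted spermatocytes and spermatids were not analysed here. A few genes that met the naming rule are not reported here.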

Additional observations from a re-analysis of the deposited data

Results flagged for a closer look

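Of 19 groups of 4 to 10 libraries examined for a value far from the others by Dixon's criterion, which chance meets in about 1 of 20, 7 such values were found. Of these, 4 belong to WT library 2, whose 2 spermatogonia held 10.8% mitochondrial UMIs (the other WT libraries 1.11% to 2.04%), 3.86% X-linked per autosomal UMIs (1.25% to 2.46%), 27691 counts per 1000000 UMIs (CPM) over the Sertoli list (0 to 1245) and 1045 CPM over the Leydig list (0 to 415). The 2 spermatogonia of WT library 8 held 70510 CPM over the spermatid list, against 6166 to 17241 in the other WT libraries.

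Mlh3 library 2 held a share of spermatogonia of 4.08%, against 0.302% to 0.629% in the other Mlh3 libraries. The spermatogonia of Mlh3 library 4 held 1416 CPM over the DNA replication list, against 2839 to 3687 in the others.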

How the results depend on the processing

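The share of spermatogonia was higher in Mlh3 than in WT under all alternatives run, but its adjusted p exceeded 0.05 with at least 5 marker UMIs (0.620 points) and with Mlh3 libraries 2 and 3 merged (0.535 points). The difference was 1.55 points without barcodes of 10% or more mitochondrial UMIs and 1.91 points with at least 1000 UMIs per barcode, both past the test, and ran from 0.348 to 1.10 points with each library left out. For Cul4a the share passed the test in HiSeq libraries of mechanical dissociation (0.461 points). That subset lacked WT libraries 1, 2 and 3, which held the highest WT shares. Left-out libraries gave 0.258 to 0.411 points for Cul4a (past the test without WT library 1). For CNP it passed in those HiSeq libraries (0.165 points), turned negative with at least 1000 UMIs (-0.0499 points) or 200 UMIs (-0.0548 points), and ran from -0.0354 to 0.114 points. The mitochondrial difference of Mlh3 passed in the HiSeq libraries (8.59 points), and left-out libraries gave 4.04 to 6.87 points (past the test without WT library 2). It ran from -1.33 to 0.0516 points for Cul4a and from -1.19 to 0.193 for CNP, and was 0.118 points for CNP in the HiSeq libraries. X-linked differences changed sign without spermatogonia of 1% or more spermatid UMIs for Mlh3 (-0.139 points) and Cul4a (-0.124), and for CNP in the HiSeq libraries (0.255) and with at least 2 spermatogonia (0.00399). With libraries left out, they ran from -0.0304 to 0.342 points for Mlh3, from 0.00689 to 0.379 for Cul4a and from -0.169 to 0.203 for CNP. The correlation with age was 0.29 in the HiSeq libraries. Without WT libraries 2 and 8, chosen after the data were seen, the share of Mlh3 no longer passed (0.949 points) and its mitochondrial difference did (6.90 points), while the mitochondrial differences of Cul4a (0.0794) and CNP (0.221) and the X-linked one of CNP (0.0652) changed sign. None of these sign changes passed a test, and the causes were not tested.

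Mlh3 against Cul4a gave 113 calls by edgeR, 22 by DESeq2, 55 with edgeR's own filter (949 genes tested), 40 with the platform as covariate, 42 in the HiSeq libraries, 28 without spermatogonia rich in spermatid UMIs, 68 without those rich in mitochondrial UMIs, 176 from libraries with at least 3 spermatogonia, and 14 (without Cul4a library 1) to 120 with each library left out. It gave 62 without Mlh3 library 5, 42 without Mlh3 library 2 and 58 without Cul4a library 2. The number of calls rests on few libraries, and a lone library is assumed to vary like the others. A replicate block on libraries with at least 3 spermatogonia gave 15 calls. Same-numbered libraries share only a number (pairing correlations of -0.013 and 0.068 over 2752 genes). Alternatives of the gene tests against WT, and fits with at least 20 spermatogonia, gave no value. Depth limits the CNP and WT spermatogonia most, with 5131 UMIs in 3 barcodes and 25934 in 16.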
